A study of Mus musculus with 11 samples.

Results

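The Krüppel-like factors (KLF) are transcription factors that bind GC-rich and CACCC-type DNA through C2H2 zinc fingers at their carboxyl end. Described here are Klf5, the gene deleted in this study, and 9 of its paralogs that are known in blood cells: Klf1, Klf2, Klf3, Klf4, Klf6, Klf7, Klf9, Klf10 and Klf13. They are 10 of 22021 genes named by a single symbol on the array, taken by gene symbol from the larger of 2 deposited tables, with the row of highest mean where a gene has several. Klf3 and Klf9 had 2 rows each and the other members 1.

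The cells were LSK bone marrow cells of mice on the C57BL/6 background, the lineage-negative, Sca-1-positive, Kit-positive fraction that holds stem cells and early progenitors. Per the labels, the knockout group (KLF5 KO) and the wild-type group (KLF5 WT) both carry the transgene spelled MxlCre, known as Mx1-Cre, in which an interferon-responsive promoter drives the Cre recombinase, so the controls share the Cre. The age and sex of the animals, the induction of the Cre, the deleted part of Klf5 and the share of cells that lost it are not given in the sources used here. Total RNA was hybridised to Affymetrix Mouse Gene 1.0 ST arrays, whose probes lie along the whole transcript. The 9-array table holds 4 knockout and 5 wild-type arrays (replicates 2 to 5 and 2 to 6), and knockout replicate 1 and wild-type replicate 1 form a table of 2 arrays that was normalized apart. Values are log2 signals, so a difference of 1 is a doubling of signal. The labels do not tie arrays to animals, so a p-value here reflects only how far these arrays scatter, and some of that scatter may be technical.

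KLF proteins fall into functional groups that order the results below. Klf1, Klf2, Klf4, Klf5, Klf6 and Klf7 act mostly as activators that recruit acetyltransferases. Klf3, with Klf8 and Klf12, represses through the corepressor CtBP, and Klf9, Klf10 and Klf13, with Klf11, Klf14 and Klf16, recruit the corepressor Sin3a. Because members bind overlapping DNA motifs, one can in principle take over from another, and the comparison asks whether any paralog was higher where Klf5 had been deleted. KLF protein was not measured.

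The LSK label was met by Kit, which lay between 9.79 and 10.38 on the 9 arrays, and less evenly by Ly6a, the gene of Sca-1, which lay between 6.57 and 8.54. Globin signal was uneven. Hbb-b1, an adult beta-globin gene, was at 9.25 and 10.59 in knockout replicates 2 and 5 and at 9.91 and 10.68 in wild-type replicates 2 and 6, but between 6.39 and 7.43 on the other 5 arrays. The mean of 8 B cell markers lay between 5.94 and 6.62 on the same 4 arrays and between 5.46 and 5.66 on the other 5, a split that rested on Vpreb1, a gene of the pre-B cell receptor, since the other 7 markers averaged 5.34 to 5.91 on the 4 arrays and 5.25 to 5.45 on the 5. Progenitor markers moved with the same arrays: Ly6a was at 7.95 to 8.54 on the 4 against 6.57 to 7.59 on the 5, and Flt3, a receptor of multipotent progenitors, at 9.25 to 9.51 against 7.83 to 8.90. Sex-linked signal was mixed too: Xist lay between 9.59 and 11.12 in all 4 knockout arrays and in wild-type replicates 5 and 6, and between 4.74 and 5.47 in the others. Of those 6 arrays, 3 also carried the Y-linked Ddx3y at 7.875 to 8.003 (replicates 2 and 5 of the knockout and 6 of the wild type), while the other 3 had it at 4.44 to 4.77. The part of these differences in the results below was not tested. The 3 arrays of mixed sex-linked signal and the 4 of high Hbb-b1 were each left out in turn, and values that moved by over 1.5 times or changed direction are given with each member. Both exclusions left knockout replicates 3 and 4, which were high in Xist and low in Ddx3y. Of the wild-type arrays left, only replicate 5 was alike. The others were low in Xist and had Ddx3y at 8.78 to 9.37. In both fits genotype and sex-linked signal are therefore largely confounded.

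Klf5, which promotes proliferation in epithelia and smooth muscle, had slightly less signal in knockout. Its log2 signals were 6.72, 6.58, 6.76 and 6.69 in knockout replicates 2 to 5. Wild-type replicates 2 to 6 gave 6.77, 6.98, 6.94, 6.98 and 6.77. Every knockout array lay below every wild-type array, by 0.01 at the closest point. The fold of knockout over wild type was 0.870 (95% interval 0.771 to 0.981), a log2 difference of -0.20 ± 0.08 (SE, limma, unadjusted p = 0.0279). An exact permutation test over the 9 arrays gave a two-sided p of 0.0317, since 4 of the 126 ways to choose 4 arrays gave a difference at least as large; the smallest p this test allows is 0.0079. Over all 28944 transcript clusters tested, the limma adjusted p was 0.916, so Klf5 did not pass. The 95% interval included 0 in 9 of 24 alternative fits, where the unadjusted p was 0.0541 to 0.207, among them those without knockout replicate 3 or without wild-type replicate 3, 4 or 5. Of all clusters, 2.63% were lower in knockout at an unadjusted p under 0.05, and 0.726% were lower with no overlap of the groups.

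The Klf5 row lay above only 66.4% to 75.4% of the 5222 negative-control rows of its array, though above their median on all 9 arrays, as were all 10 members. Its probes cover the whole transcript, and those outside the deleted part, which is not given here, check nothing. The 0.870-fold signal is therefore no estimate of how much Klf5 transcript remained. The separately normalized pair gave 7.17 in knockout and 7.32 in wild type, a difference of -0.15 in the same direction. On the 5 arrays without high Hbb-b1, the difference was -0.30 over 2 knockout and 3 wild-type arrays (limma adjusted p = 0.599).

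**Figure D1:**
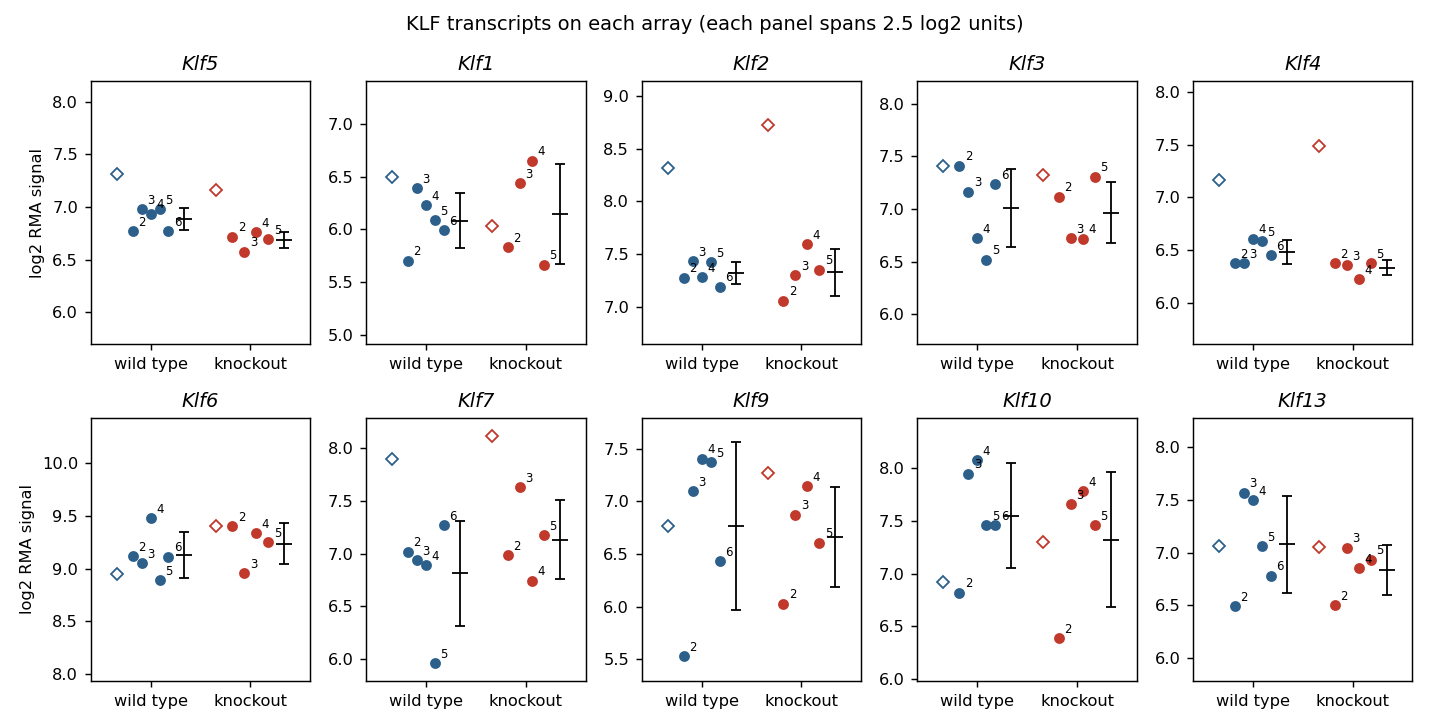
Log2 RMA signal of the 10 KLF genes, a panel each, in wild-type (blue) and knockout (red) arrays. Filled points are the arrays of the 9-array table with their replicate numbers, bars show their mean ± SD, and open diamonds are the separately normalized pair, whose levels are not comparable with the points. In Klf5 all 4 knockout points lie below all 5 wild-type points, and in the 9 other panels the groups overlap.

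No paralog passed the test. Of the 10 members, 0 of 10 passed the adjusted threshold of 0.05 in limma, against 0% of all 28944 clusters (0 of them). At an unadjusted p under 0.05 there was 1, Klf5, against 4.08% of all clusters. The groups did not overlap in 1 of 10, again Klf5, against 0.985% of all clusters. Of the 9 paralogs, 4 had higher and 5 lower means in knockout, and their median difference was -0.04, against -0.02 over all clusters, of which 44.1% were higher. The 95% interval excluded a rise in signal of 1.5-fold for 7 of the 9 paralogs, the exceptions being Klf7 and Klf9. For Klf1 and Klf10 this was lost in some alternative fits, as with array weights, where both upper limits were 0.75 log2 units. Without knockout replicate 2 these limits were 0.71 and 0.69. For Klf2 it was lost over all 11 arrays without a term for the table (upper limit 0.76). The main fit excluded a 2-fold change of signal in either direction for all 10 members, but for Klf7, Klf9 and Klf10 this was lost in 12, 11 and 10 of 24 alternative fits. These bounds hold for signal, and near background a change in transcript can be larger than the change in signal.

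**Figure D2:**
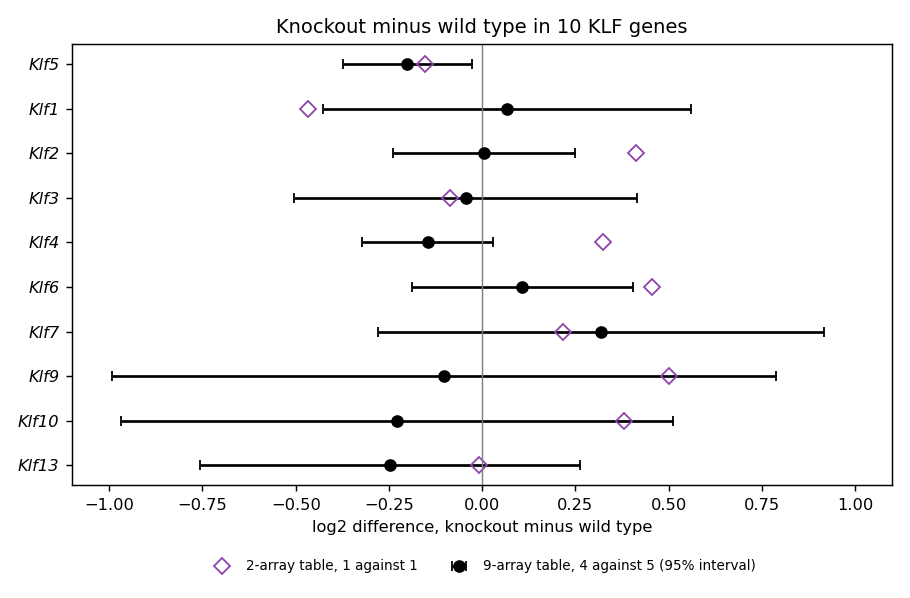
Log2 difference in signal, knockout minus wild type, for each member. Black points with bars give the 9-array estimate (4 knockout against 5 wild-type arrays) with its 95% interval, and open diamonds the single difference of the 2-array table; the interval of Klf5, from -0.37 to -0.03, is the only one that leaves out 0.

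Among the activators, Klf1, the erythroid factor that switches on beta-globin, varied between arrays of each genotype more than between genotypes. Its signals were 5.83, 6.44, 6.66 and 5.67 in knockout replicates 2 to 5. Wild-type replicates 2 to 6 were at 5.70, 6.39, 6.23, 6.09 and 6.00. The groups overlapped widely, with a log2 difference of 0.07 (95% CI -0.43 to 0.56, adjusted p = 0.972 in limma). The 4 lowest arrays, at 5.67 to 6.00, were knockout replicates 2 and 5 and wild-type replicates 2 and 6, the 4 arrays with the most Hbb-b1, while the other 5 lay between 6.09 and 6.66. The Klf1 transcript was thus lowest on the arrays richest in globin transcript, an order found in 1.73% of all clusters. The cause was not tested, and in sorted bulk cells fewer cells of a type and less RNA per cell cannot be told apart. The difference turned to -0.03, -0.10 and -0.03 when knockout replicate 3, knockout replicate 4 or wild-type replicate 2 was left out. Without the 4 arrays it was 0.31, and it was 0.44 without the 3 arrays that carried both Xist and Y-linked signal. In the separately normalized pair Klf1 differed by -0.47, opposite in sign.

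Klf2, which keeps lymphocytes quiescent and turns on the trafficking receptor S1pr1, was close to equal. Knockout replicates 2 to 5 were at 7.06, 7.30, 7.59 and 7.35, and wild-type replicates 2 to 6 at 7.27, 7.43, 7.28, 7.42 and 7.19. The wild-type values lay inside the knockout range. The log2 difference was 0.01 (95% CI -0.24 to 0.25, adjusted p = 0.996 in limma), which bounds a rise at 1.19-fold and a fall at 0.847-fold. The 2-array pair gave 8.73 in knockout and 8.31 in wild type, a difference of 0.41 that lies outside this interval and has no replicate check. In the 9-array table it was 0.09 without the 3 arrays of mixed sex-linked signal and 0.07 without the 4 of high Hbb-b1.

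Klf4, a factor of monocyte differentiation and of reprogramming to pluripotency, had lower means in knockout. Its values were 6.37, 6.36, 6.22 and 6.37 in knockout replicates 2 to 5. Wild-type replicates 2 to 6 had 6.37, 6.37, 6.61, 6.59 and 6.45. The groups met at 6.37, the value of 4 arrays, which was the same in all deposited digits on knockout replicates 2 and 5 and wild-type replicates 2 and 3. Such exact ties occurred in 57.5% of all clusters and also in Klf5 and Klf10, and they narrow the measured spread. The log2 difference of Klf4 was -0.15 (95% interval -0.32 to 0.03, unadjusted p = 0.0906, limma adjusted p = 0.916). It was -0.23 without the 4 arrays of high Hbb-b1. The 2-array pair had the opposite sign, at 0.32.

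Klf6, a broadly expressed factor needed for yolk sac blood formation, was the clearest of the members above background. It exceeded the 95th percentile of the negative-control rows, which lay between 8.76 and 9.34, on 6 of the 9 arrays, and no other member did so on any array. Knockout replicates 2 to 5 gave 9.40, 8.96, 9.34 and 9.25, and wild-type replicates 2 to 6 gave 9.12, 9.05, 9.48, 8.89 and 9.11. The highest and the lowest of the 9 values were both wild type. The difference of 0.11 (95% CI -0.19 to 0.40, adjusted p = 0.924 in limma) was smaller than the SD of either group, 0.20 in knockout and 0.22 in wild type. It was 0.01 without the 3 arrays of mixed sex-linked signal, 0.007 without the 4 of high Hbb-b1, and 0.46 in the 2-array pair.

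Klf7, best known from neurons and the close relative of Klf6, had the largest difference of the members in size, and 1 array carried most of it. Knockout replicates 2 to 5 stood at 6.99, 7.63, 6.74 and 7.18. Among wild-type replicates 2 to 6 the values were 7.02, 6.94, 6.89, 5.96 and 7.27. Wild-type replicate 5 was far below the rest, and the other 4 wild-type arrays lay inside the knockout range. The log2 difference was 0.32 (95% CI -0.28 to 0.92, adjusted p = 0.916 in limma) and fell to 0.11 without wild-type replicate 5. It was 0.15 without knockout replicate 3, the highest array, 0.49 without the 3 arrays of mixed sex-linked signal and 0.59 without the 4 of high Hbb-b1. The pair normalized apart gave 0.22.

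Klf3, the CtBP-dependent repressor, is itself a known target of Klf1 in erythroid cells. Its signals were 7.12, 6.73, 6.72 and 7.31 in knockout replicates 2 to 5, and 7.41, 7.17, 6.72, 6.52 and 7.23 in wild-type replicates 2 to 6. Knockout replicates 2 and 5 and wild-type replicates 2 and 6, the lowest for Klf1, were at 7.12 or above in Klf3, and of the other 5 arrays only wild-type replicate 3 reached that level. The 4 arrays all lay above the member's mean over the 9 in Klf3 and Klf7, 2 of 10 members against 11.8% of all clusters, and all below it in Klf5, Klf1, Klf9 and Klf13, 4 of 10 against 14.7%. Between genotypes the log2 difference was -0.04 (95% CI -0.50 to 0.42, adjusted p = 0.978 in limma). It was -0.23 without the 3 arrays of mixed sex-linked signal and -0.08 without the 4 of high Hbb-b1, and it turned to between 0.01 and 0.06 when knockout replicate 3 or 4 or wild-type replicate 2 or 6 was left out. A second row of Klf3, with means of 6.22 in knockout and 6.25 in wild type, differed by -0.03.

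The CACCC letters through which Klf1 is known to act can be read in the 250 bases before the annotated starts (RefSeq sequences, GRCm38.p6), shown for Klf1 and its known target Klf3, and for Klf9 and Klf13 as members of the Sin3a-recruiting group with an entry. Capitals mark CACCC or its reverse complement GGGTG, and each line runs 5′ to 3′ on the strand of the gene.
Klf1, chr8:84901732-84901981, plus strand: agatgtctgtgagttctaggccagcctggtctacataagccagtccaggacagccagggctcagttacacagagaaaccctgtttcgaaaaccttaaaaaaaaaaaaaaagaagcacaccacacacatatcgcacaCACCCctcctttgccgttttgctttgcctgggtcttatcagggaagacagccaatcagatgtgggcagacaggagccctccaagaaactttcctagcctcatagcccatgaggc
Klf3, chr5:64803271-64803520, plus strand: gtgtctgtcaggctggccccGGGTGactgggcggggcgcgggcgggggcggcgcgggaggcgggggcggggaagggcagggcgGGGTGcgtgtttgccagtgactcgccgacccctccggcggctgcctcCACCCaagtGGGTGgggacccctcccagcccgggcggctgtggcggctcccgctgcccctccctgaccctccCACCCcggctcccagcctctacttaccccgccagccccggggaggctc
Klf9, chr19:23140976-23141225, plus strand: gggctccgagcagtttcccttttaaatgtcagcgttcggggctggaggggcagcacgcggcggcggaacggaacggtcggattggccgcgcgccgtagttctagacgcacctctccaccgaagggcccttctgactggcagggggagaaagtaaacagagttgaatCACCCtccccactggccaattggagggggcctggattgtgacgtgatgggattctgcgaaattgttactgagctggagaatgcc
Klf13, chr7:63938916-63939165, minus strand: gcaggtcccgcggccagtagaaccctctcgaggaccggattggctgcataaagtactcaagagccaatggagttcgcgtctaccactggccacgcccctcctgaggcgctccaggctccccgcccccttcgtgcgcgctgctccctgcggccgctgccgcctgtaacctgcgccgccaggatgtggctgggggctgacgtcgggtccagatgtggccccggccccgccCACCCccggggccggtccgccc

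Klf3 holds 5 such matches, 2 as CACCC and 3 as GGGTG, while Klf1, Klf9 and Klf13 hold 1 each, and of those not printed Klf7 holds 3 and Klf2 holds 1. Of the 8 members with an entry in the promoter table, 6 held at least 1 match in this window, and the other two were Klf4 and Klf6. The same letters occur in 52% of the 32851 promoter windows of that table. A match is a run of letters and no evidence of binding.

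The Sin3a-recruiting members Klf9, Klf10 and Klf13 varied widely between arrays. Klf9, which responds to glucocorticoid and thyroid hormone, was at 6.03, 6.88, 7.14 and 6.61 in knockout replicates 2 to 5. In wild-type replicates 2 to 6 it was at 5.53, 7.09, 7.41, 7.37 and 6.43. The wild-type values alone spanned 1.88, while the log2 difference between genotypes was -0.10 (95% CI -0.99 to 0.79, adjusted p = 0.974 in limma). Its 4 lowest arrays, at 5.53 to 6.61, were again the 4 with high Hbb-b1, and the others lay between 6.88 and 7.41. Klf9 and Klf1 were 2 of 10 members in this order, against 1.73% of all clusters. In 0 of 10 members were these 4 arrays the highest, against 3.13% of all clusters. The difference turned to 0.11, 0.06 and 0.05 when knockout replicate 2, wild-type replicate 4 or wild-type replicate 5 was left out, and it was -0.41 when wild-type replicate 2 was. It was 0.16 without the 3 arrays of mixed sex-linked signal and -0.28 without the 4 of high Hbb-b1. The 2-array pair gave 0.50, the highest of the 10 members there and opposite in sign. A second, dimmer row of Klf9 gave a difference of -0.04.

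Klf10, a TGF-beta-inducible factor, was low on replicate 2 of both genotypes. Knockout replicates 2 to 5 had 6.39, 7.66, 7.78 and 7.46. Wild-type replicates 2 to 6 had 6.82, 7.95, 8.08, 7.46 and 7.46. Apart from these lowest arrays, the groups overlapped over most of their range. The log2 difference of -0.23 (95% CI -0.97 to 0.51, adjusted p = 0.934 in limma) became 0.08 when knockout replicate 2 was left out and -0.41 when wild-type replicate 2 was. It was 0.15 without the 3 arrays of mixed sex-linked signal and -0.11 without the 4 of high Hbb-b1. The pair of the second table gave 0.38.

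Klf13, an activator of the chemokine gene Ccl5 in T cells, had the lowest difference of the members. Its knockout replicates 2 to 5 read 6.502, 7.047, 6.851 and 6.935. Its wild-type replicates 2 to 6 read 6.494, 7.570, 7.499, 7.059 and 6.782. Wild-type replicates 3, 4 and 5 stood above all knockout arrays, the last by 0.01, while wild-type replicate 2 lay below all of them. The log2 difference was -0.25 (95% CI -0.76 to 0.26, adjusted p = 0.918 in limma), and it was -0.01 in the 2-array pair. It moved to -0.12 without wild-type replicate 3, to -0.14 without wild-type replicate 4 or knockout replicate 2, to -0.39 without wild-type replicate 2 and to -0.43 without the 4 arrays of high Hbb-b1.

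**Figure D3:**
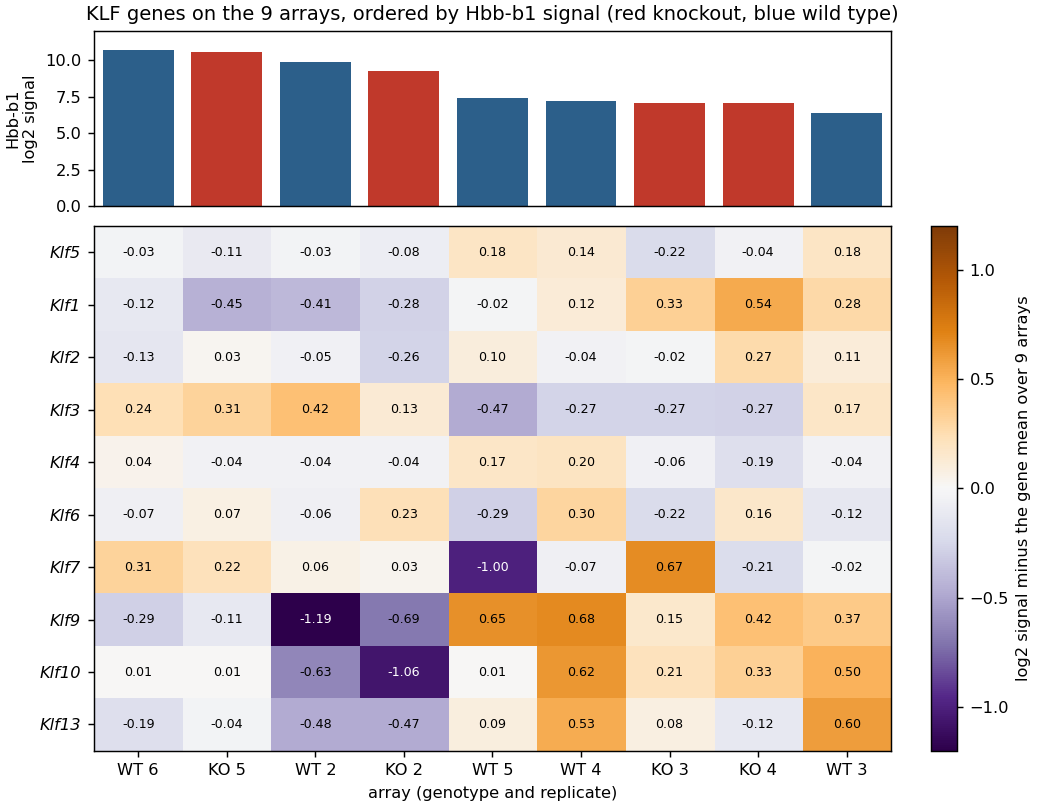
KLF genes on the 9 arrays ordered from left to right by falling Hbb-b1 signal. The upper bars show the log2 signal of Hbb-b1 in knockout (red) and wild-type (blue) arrays, and the lower grid the log2 signal of each member minus its own mean over the 9 arrays. In the 4 columns on the left, where Hbb-b1 was 9.25 to 10.68, Klf1, Klf5, Klf9 and Klf13 lie below their mean and Klf3 and Klf7 above it.

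Members differed in how far they spread between arrays of 1 genotype. In all 9 paralogs the span within knockout and the span within wild type each exceeded the difference between the genotype means. The SD within genotype was 0.68 for Klf9, 0.56 for Klf10 and 0.45 for Klf7, which placed them at percentiles 97.5, 95.5 and 91.6 of all clusters, whose median was 0.18. Klf5 and Klf4 were at the other end, with 0.10 each and percentiles of 13.6 and 14.1. Members with a small spread had tighter intervals for the change in signal, though exact ties narrow the measured spread of Klf5 and Klf4. The intervals of Klf9 and Klf10 ran from a near halving of signal to a rise of 1.73-fold and 1.43-fold.

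**Figure D4:**
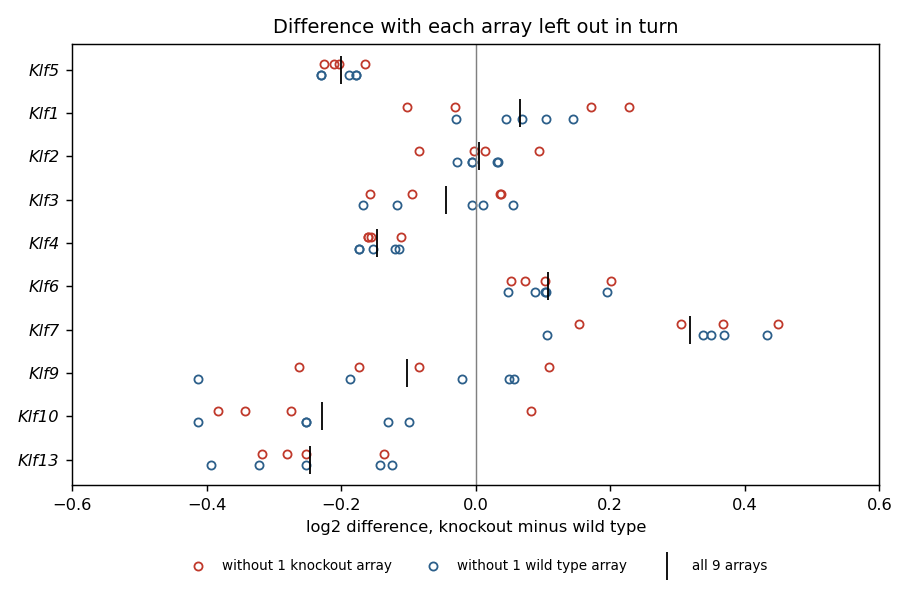
Log2 difference, knockout minus wild type, with each array left out in turn. Black bars give the value with all 9 arrays, red circles the values without 1 knockout array and blue circles those without 1 wild-type array. Klf5 stays between -0.23 and -0.16, while Klf1, Klf2, Klf3, Klf9 and Klf10 cross 0.

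The separately normalized pair had 6 of 10 members in the same direction as the 9-array table, Klf5, Klf2, Klf3, Klf6, Klf7 and Klf13. In that pair 6 members had higher signals in knockout, against 51.3% of all clusters, and 0 of 10 differed by over 1.5-fold, against 1.36% of all clusters. With 1 array a group these differences carry no test.

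The remaining family members did not pass either. Of 16 other KLF and SP factors, which share the zinc-finger type, 6 had higher and 10 lower means in knockout, and the median difference was -0.06. None of the 16 passed in limma, 0 reached an unadjusted p under 0.05, and the smallest p-values belonged to Klf14 at -0.17, Sp5 at 0.21, Klf16 at -0.11 and Sp9 at -0.16. Klf12, a CtBP-dependent relative of Klf3, ranged from 5.34 to 7.43 over the 9 arrays and differed by 0.11 (95% interval -0.87 to 1.09).

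Of 15 cofactors and regulators of KLF proteins, 8 had higher and 7 lower means. Ctbp2, a CtBP corepressor of Klf3, was at 7.14, 7.07, 7.11 and 7.12 in knockout replicates 2 to 5 and at 7.43, 7.28, 7.25, 7.35 and 7.35 in wild-type replicates 2 to 6. All knockout arrays lay below all wild-type arrays, as in 0.726% of all clusters. Ctbp2 is named as the smallest limma p of the 15. At an unadjusted p under 0.05, 1 of the 15 was lower in knockout, against 2.63% of all clusters. The log2 difference was -0.22 (95% interval -0.36 to -0.08, unadjusted p = 0.0058), which did not pass over all clusters (limma adjusted p = 0.916), and the 2-array pair gave -0.13. Hdac2, a histone deacetylase, followed at 0.24, Wwp1, a ubiquitin ligase that targets Klf5, at 0.19 and the acetyltransferase gene Crebbp at 0.18, all with overlapping groups.

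Genes known to lie downstream of the members did not pass the test. Of 7 genes reported as Klf5 targets, 2 had higher and 5 lower means, with Rab5b at -0.31, Rab5a at -0.19, the cyclin gene Ccnd1 at -0.14 and Cdk1 at 0.11. The 15 Klf1 targets and erythroid genes with a row had 5 higher and 10 lower means and a median of -0.03. Ermap, an erythroid membrane protein, had the smallest p among them, with a difference of 0.45 (unadjusted p = 0.0573, limma adjusted p = 0.916). Like Klf1 it was highest in knockout replicates 3 and 4, at 7.26 and 7.08. The 6 Klf2 targets had 2 higher and 4 lower means, with Ccr7 at -0.20 and S1pr1 at -0.01.

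Stress and interferon genes were read beside the members, since Klf2, Klf4, Klf6 and Klf10 can respond quickly to handling and the Cre promoter responds to interferon. Of 16 immediate early genes 8 had higher and 8 lower means, with Dusp1, a MAP kinase phosphatase, at 0.38 (unadjusted p = 0.0335, limma adjusted p = 0.916). In the 2-array pair all 16 were higher in knockout, with list means of 8.75 and 8.36, and there Klf2, Klf4, Klf6 and Klf10 were higher by 0.32 to 0.46. Klf9 and Klf7 were higher there as well, by 0.50 and 0.22. All 8 neutrophil and granule, all 6 mast cell and basophil and all 5 megakaryocyte markers were higher too, against 1 of 8 B cell markers. The part of handling in these values was not tested. In the 9-array table the mean of the immediate early genes was lowest, at 8.11 to 8.23, in knockout replicate 2 and wild-type replicates 2 and 6, and 8.35 or more on the others. Of 12 interferon response genes 7 had higher and 5 lower means, with Rsad2, an antiviral enzyme, at -0.30 (unadjusted p = 0.0264, limma adjusted p = 0.916). No gene of these lists passed.

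Genes whose signal followed each member most closely over the 9 arrays were sought among 11958 rows above the median signal that carry a gene name, predicted genes and receptor or immunoglobulin segments left out. These likeness values are the highest of many and carry no p, and the arrays share the uneven Hbb-b1 signal given above. For Klf5 they were Igf2os, Dhrs13, Acvrl1, Nrtn and Wfdc10, with Pearson r of 0.963, 0.956, 0.949, 0.945 and 0.941 (Spearman rho 0.954, 0.903, 0.829, 0.794 and 0.945). Igf2os, Acvrl1 and Wfdc10 had knockout means below wild type by -0.26, -0.26 and -0.27 on the log2 scale. For Klf1 they were Cks2 and Nufip2 (r of 0.957 and 0.953), for Klf2 Rps7 and Rreb1 (0.988 and 0.961), for Klf3 Gas5 and Rdh14 (0.941 each), and for Klf4 Kyat1 and Gdf1 (0.986 and 0.948). Klf6 was followed by Supt20 and Espl1 (0.923 and 0.916), Klf7 by Edem1 and Keap1 (0.985 and 0.968), Klf9 by Pfdn1 and Zfp784 (0.974 and 0.957), Klf10 by Donson and Rps28 (0.988 and 0.984) and Klf13 by Cd276 and Pianp (0.962 each). No KLF gene was among them.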

How the data were processed

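The authors deposited log2 RMA signals (background correction, quantile normalization and median polish), per the file headers with default gene-level settings, and per the submitters' processing notes from Affymetrix Expression Console (version not stated). The deposited value table, headed by sample, held the RMA values within 5e-05, so arrays were matched to replicate numbers through it; numbers in the column names differ from those of the titles. Of 35556 rows, 6612 control rows were left out and 28944 tested. Differences were fitted with limma 3.58.1 in R 4.3.3 (lmFit and eBayes), two-sided, and p-values were adjusted by the Benjamini-Hochberg method across the 28944 rows; 0.05 was the threshold. The Klf5 permutation test was exact. Members were taken by the symbol in the file; lists were matched through RefSeq accessions (GRCm38.p6), which named 22118 rows, and of the listed genes Ahsp and Gp1bb were not analysed here. Genes named beside the members were up to 4 of smallest p per list and those of highest r. The bar for background was the 95th percentile of 5222 negative-control rows. The members and lists were chosen with earlier results of these data known. On simulated data with 50 rows changed per size, the fit called 22% of rows changed by 0.5 log2 units and 70% of those changed by 1. It called 98% and 100% of those changed by 2 and 3, with 5 unchanged rows called. All sizes shared 1 run, in which larger changes ease the adjustment for smaller ones. The shares for 0.5 and 1 can therefore be too high for data without large changes. The changed rows were drawn from those above the median signal, and the simulated noise was independent between rows. Signal shared by rows of an array, as with Hbb-b1, was not simulated, so these shares need not hold for the members. Arrays carry no read depth, and their number limits the precision (median SE 0.116). The numbers in titles, descriptions or column names were not taken as pairs, since no numbering had all 4 correlations of matched arrays' deviations over 0.1 (titles -0.24 to 0.13, descriptions -0.05 to 0.40, column names 0.07 to 0.40). In the column names, replicates 2 of both genotypes hold no number and were matched to each other. Alternatives covered the value table, the 2-array table, normalization, filter, variance model, array weights, replicate blocks, a per-row test of equal variance without moderation, averaged rows and each array left out; those without arrays of high Hbb-b1 or mixed sex-linked signal, and the block from column names, were chosen after seeing the data. Figures were drawn with matplotlib 3.10.9.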

Additional observations from a re-analysis of the deposited data

Results flagged for a closer look

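Among 20 groups of 4 or 5 arrays screened (10 members in 2 genotypes), 2 had 1 array standing well apart, and chance gives this in about 1 group in 20. Klf4 in knockout replicate 4 was low at 6.22, with the other 3 knockout arrays between 6.36 and 6.37. Of those 3, replicates 2 and 5 had exactly the same value, which narrows the range the gap is set against. Klf7 in wild-type replicate 5 was low at 5.96, with the other 4 wild-type arrays between 6.89 and 7.27. That array also had the lowest Klf3, at 6.52, and the lowest Klf6, at 8.89, of the 9 arrays.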

How the results depend on the processing

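Klf5 had a negative difference under all 24 alternatives, from -0.30 without the 4 arrays of high Hbb-b1 to -0.16 with array weights, and from -0.23 to -0.16 with each array left out. Its limma adjusted p stayed between 0.599 and 1, but its unadjusted p exceeded 0.05 in 9 of the 24: with array weights (0.0662), the title and column-name blocks (0.0618 and 0.0995), 11 arrays without the table term (0.2072), the 3 arrays of mixed sex-linked signal left out (0.0542) and each of knockout replicate 3 and wild-type replicates 3, 4 and 5 left out (0.0541 to 0.0791). No member and no cluster passed under any alternative, and the lowest adjusted p over all clusters was 0.0732, without wild-type replicate 2. Klf4, Klf6, Klf7 and Klf13 kept their direction under all 24. Klf1 turned to -0.0314 and -0.0263 over all 11 arrays (with and without a term for the table) and to -0.0289 in the fit with a replicate block from the descriptions, and lay between -0.1024 and 0.2275 with each array left out. Klf2 turned to -0.0387 under quantile normalization, to -0.0274 with the block from the titles and to -0.0061 with the block from the descriptions (-0.0843 to 0.0939 with each array left out). Klf3 turned to 0.0109 and 0.0558 in these block fits (-0.1676 to 0.0558). Klf9 turned to 0.0081 and 0.0181 over all 11 arrays with and without the table term, to 0.2899 with array weights and to 0.1592 without the 3 arrays of mixed sex-linked signal (-0.4125 to 0.1089). Klf10 turned to 0.0373 with array weights and 0.1474 without those 3 arrays (-0.4128 to 0.0828). Each block fit has 4 pairs and drops 1 wild-type array, replicate 6 (titles), 2 (descriptions) or 3 (column names), and its differences equal those without that array, so the turns in the block fits came with the dropped array. The cause of the other turns was not tested. The replicate block left the Klf5 difference at -0.23, -0.23 and -0.18 with the title, description and column-name numbers. In these, 3, 3 and 5 of 8 arrays correlated best with the array they were matched to. With the column names, replicates 2 of both genotypes were matched only because neither name holds a number. Knockout replicate 5 and wild-type replicate 6 shared the number 4. These are the 4 arrays of high Hbb-b1. That block narrowed the Klf9 interval to -0.47 to 0.43, against -1.01 to 0.97 for the same arrays without it. The Klf10 interval became -0.50 to 0.24, against -0.93 to 0.67, while those of Klf4, Klf5 and Klf6 widened. Whether these arrays were pairs is not given. Clusters at an unadjusted p under 0.05 numbered 1181, against 176 over all 11 arrays without the table term, 782 among the 18400 clusters left by the filter on dim rows, 1850 without the 3 arrays and 2306 without the 4, and from 798 to 1698 with each array left out. Of the 1181, 420 were higher in knockout, against 695 of 1140 after median centring and 511 of 1216 after quantile normalization. Without moderation of the variance they numbered 1150, with 0 after adjustment. Some 95% interval reached a 2-fold change in 17 of the 24, in Klf7, Klf9 or Klf10. Most members lie near background, which limits what a difference in signal can say about the transcript.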

Other observations

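Marker lists of other cell types that an LSK sort could hold gave no call between genotypes (0 past the adjusted threshold in limma). Of 8 neutrophil and granule markers 7 had higher means in knockout, the median difference being 0.21 on the log2 scale, among them S100a9 at 0.62 and Ctsg at 0.62, both with overlapping groups. The list mean was 7.51 and 7.39 in knockout replicates 3 and 5 and between 6.49 and 6.85 on the other 7 arrays, so 2 of the 4 knockout arrays stood apart. Of 8 B cell markers 6 had lower means, with Cd79a at -0.48 (unadjusted p = 0.0548) and Cd22 at -0.24. All 7 stromal and endothelial markers had lower means, by a median of -0.04, against -0.02 over all clusters, of which 44.1% were higher. Of the 7, Kdr, Cxcl12 and Lepr lay below the median of the negative-control rows on all 9 arrays. Cdh5, at -0.19, had an unadjusted limma p of 0.0346. Of 6 mast cell and basophil markers 4 were higher, with Mcpt8, a basophil protease, at 0.73, and of 5 megakaryocyte markers 4 were higher, with Ppbp at 0.34. The T and NK cell, monocyte and epithelial lists, of 6 genes each, had 3 higher and 3 lower means apiece. The part of these cell types in the values of the KLF genes was not tested.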
